A study of Mus musculus with 38 samples.

Results

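The components of cyclic AMP signaling were followed in single-animal pools of mouse dentate gyrus granule cells, as the 63 genes, of 23420 counted in each library, whose symbols begin with *Adcy*, *Pde*, *Prkac*, *Prkar* or *Akap* and a family number or letter, or are *Pkia*, *Pkib*, *Pkig*, *Rapgef3* or *Rapgef4*. They fall into 7 classes: 10 adenylyl cyclases, 26 genes named as phosphodiesterases, 2 catalytic and 4 regulatory subunits of protein kinase A (PKA), 3 PKA inhibitors, 16 A-kinase anchoring proteins and 2 Epac exchange factors. *Pde4dip*, *Pde6d* and *Pde12* carry the phosphodiesterase name but are a centrosome and Golgi scaffold, a carrier of lipid-modified proteins and a mitochondrial RNA-trimming enzyme, and they were kept in the class by name only.

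The animals were adult male *Arc*::dVenus mice, backcrossed into C57BL/6J, in which the promoter of the activity-regulated gene *Arc* drives a destabilized yellow fluorescent protein, dVenus. Of 19 mice, 12 were fear conditioned in a context with tones that ended in foot shocks (FC). By the study's methods, 4 had the same session in the context, tones included, with no shock (NS). The other 3 stayed untrained in the home cage (HC). Cells of the trained and exposed mice were taken 24 h later. From each mouse, the contents of 10 fluorescent (dVenus+) and of 10 non-fluorescent (dVenus-) granule cells were aspirated as nucleated patches from slices and made into 1 library each. This gives 38 libraries in 19 pairs. The mark is the reporter at the time of collection, and dVenus+ cells of HC mice carry it with no training.

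Reads assigned to genes ranged from 1352288 to 11151828, with a median of 7080448, in the 12 FC dVenus+ libraries and from 3554946 to 18394761, with a median of 9955727, in the 12 FC dVenus- libraries. In NS they ranged from 5713182 to 8470731 in dVenus+ and from 8415900 to 8771721 in dVenus- libraries. In HC they ranged from 5970884 to 7456391 in dVenus+ and from 6856117 to 9096451 in dVenus- libraries. By the code at the head of each library's label, called a run here, FC shared none with the other groups: the 12 FC mice lie in 3 runs, which the study describes as technical replicate experiments, and the 7 mice of NS and HC together in another. What a run shares beyond its code is not given in the sources used here. Run and group therefore cannot be told apart where an FC level is set beside an NS or HC level, while both libraries of a mouse came from the same run. TMM factors, which rescale a library's total for its composition, were lowest in dVenus+ libraries: 0.306 in HC mouse 16, 0.337, 0.418 and 0.510 in FC mice 05, 14 and 07, and 0.492 and 0.505 in NS mice 19 and 21. A fit without these 3 FC mice, chosen after seeing the data, and 1 without FC mice 03 and 05, whose libraries had the lowest shares of aligned reads in the study's table, are given where they change a call.

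Cyclic AMP is made from ATP by adenylyl cyclases, which are driven by stimulatory G proteins and, for some isoforms, by calcium-bound calmodulin, and it is broken down by phosphodiesterases. It releases the catalytic subunits of PKA from their regulatory subunits, while anchoring proteins hold the kinase near its substrates, PKI peptides block the free catalytic subunit, and Epac proteins carry the signal to the small GTPase Rap. In the hippocampus this pathway is best known for its role in lasting synaptic potentiation and in memory, through CREB-driven transcription among other targets.

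*Arc* itself was the check of the cell labels. Its normalized CPM (the read count over the library's total, scaled by TMM factors across all libraries) ran from 477 to 1540, with a median of 829.8, in FC dVenus+ libraries and from 0 to 172, with a median of 0.565, in FC dVenus- libraries. It was higher in dVenus+ cells of 12 of 12 FC, 4 of 4 NS and 3 of 3 HC mice, with no overlap in any group. For 10 of the 14 NS and HC libraries a description field in the deposit names another library than the title, and the titles, which *Arc* follows in cell class, were used; the pairing by mouse in NS and HC rests on the titles and mouse numbers alone. The log2 fold change was 9.98 (SE 1.41, edgeR adjusted p = 0.000991) in FC, 10.63 (SE 1.80, edgeR adjusted p = 0.0782) in NS and 9.73 (SE 1.96, edgeR adjusted p = 0.113) in HC, the last 2 short of the threshold.

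Other marker genes showed how the libraries differed beyond the reporter. The summed CPM of 9 granule cell markers, of which *Pcp4* was the most abundant, was lower in dVenus+ than in dVenus- cells of 19 of 19 mice. Medians were 738 and 2179 in FC, 1039 and 3321 in NS, and 1334 and 3612 in HC, and all 9 had counts in each group. *Calb1*, which encodes a calcium-binding protein of mature granule cells, and *Ncald*, which encodes a calcium sensor, both named after their values were seen, fell in FC dVenus+ cells by 3.14 (SE 0.582, edgeR adjusted p = 0.0100) and 2.58 (SE 0.419, edgeR adjusted p = 0.00372) on the log2 scale, each lower in 12 of 12 mice. *Calb1* missed the threshold without mice 03 and 05 (-2.96, edgeR adjusted p = 0.0634). A set of 6 RNAs that stay in the nucleus, led by *Malat1*, summed higher in dVenus+ cells of 19 of 19 mice. Medians were 34454 and 15957 in FC, 37106 and 9327 in NS, and 51352 and 4986 in HC. *Malat1* made up most of the sum (FC medians 30823 and 14700), and *Miat*, 1 of the 5 tested in FC, lay the other way (-2.41, SE 0.659, edgeR adjusted p = 0.0792). *Malat1* alone, also named after its values were seen, rose by 1.53 (SE 0.309, edgeR adjusted p = 0.0149) in FC, higher in 12 of 12 mice. It missed the threshold without mice 05, 07 and 14 together (1.22, edgeR adjusted p = 0.0601).

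Transcripts of other cell types were present in both kinds of library. The 12 microglial markers, led by *Ctss*, summed higher in dVenus+ cells of 9 of 12 FC mice (medians 291 and 43.2 CPM), 4 of 4 NS mice (803 and 22.6) and 3 of 3 HC mice (1454 and 384). None of the 12 was at 0 in a whole group. The 7 astrocyte markers, led by *Slc1a2*, summed higher in 3 of 12 FC (259 and 502), 2 of 4 NS (1580.4 and 1296) and 3 of 3 HC mice (1701 and 594). The 6 oligodendrocyte markers, led by *Mbp*, were higher in 4 of 12, 2 of 4 and 1 of 3 mice, with FC medians of 497 and 546. Gene by gene, all 4 oligodendrocyte markers tested in FC had log2 fold changes above 0 (median 1.39, 1 at an unadjusted p under 0.05), opposite to that sum. The 7 interneuron markers, led by *Gad1*, were higher in 3 of 12, 1 of 4 and 2 of 3 (FC medians 56.0 and 141; *Vip* at 0 throughout HC). The 8 pyramidal cell markers, led by *Cpne4*, were higher in 2 of 12, 2 of 4 and 0 of 3 (40.6 and 130.0; *Nov* at 0 in FC, *Iyd* in HC). In NS, 4 of 5 interneuron markers tested were higher gene by gene (median log2 fold change 1.44), unlike their sum. Of the NS astrocyte markers 6 of 7 tested were higher (median 0.47), while their sum was higher in 2 of 4 mice. For oligodendrocyte markers, 4 of 6 tested in NS (median 0.88) and 3 of 5 in HC (median 0.30) were higher. The NS oligodendrocyte sum had medians of 1256 in dVenus+ and 1930 in dVenus- libraries. The HC oligodendrocyte sum was lower in 2 of 3 mice. The 2 precursor markers *Pdgfra* and *Cspg4* and the 3 endothelial markers had FC medians of at most 0.212 CPM, with *Pecam1* at 0 in FC and HC. Single libraries held more: the precursor sum was 82.9 in the dVenus- library of FC mouse 12 and 23.4 in the dVenus+ library of FC mouse 10. The endothelial sum was 61.3, 38.7 and 11.6 in the dVenus+ libraries of NS mouse 19 and HC mice 15 and 16. Larger sums of other lists also sat in single libraries. The interneuron sum was 2618 in the dVenus- library of FC mouse 10 and 1267 in that of NS mouse 18. For FC mouse 09, the oligodendrocyte sum was 4364 in the dVenus- library and the microglial sum 2263 in the dVenus+ library. The astrocyte sum reached 3952 in the dVenus- library of NS mouse 20. The part these markers, the depth or the RNA content of a patch have in the differences of the cyclic AMP genes was not tested.

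**Figure D1:**
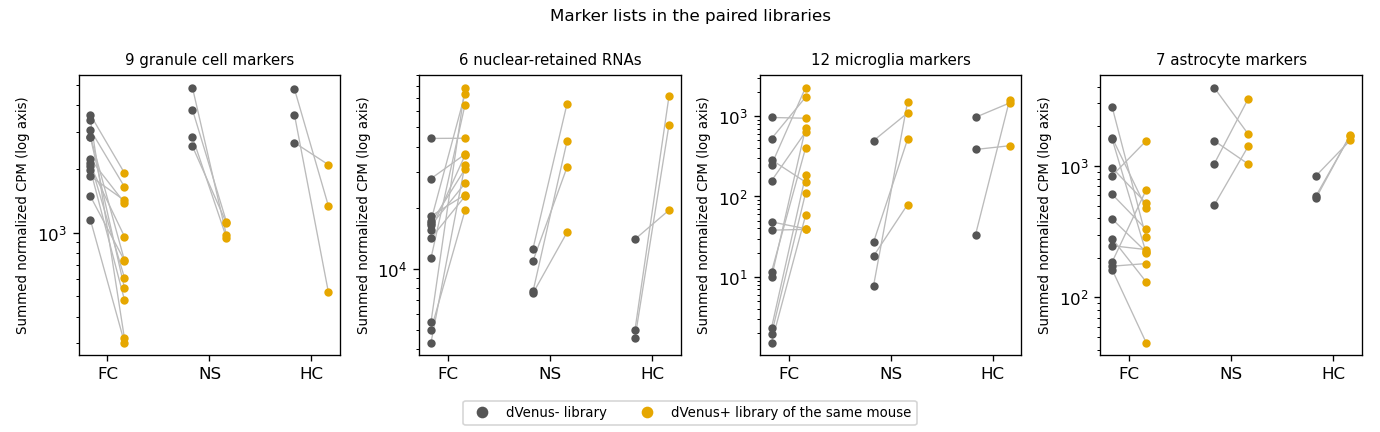
Summed normalized CPM of 4 marker lists in the dVenus- (grey) and dVenus+ (gold) library of each mouse, joined by a line (log axes). Granule cell markers were lower, and nuclear-retained RNAs higher, in dVenus+ cells of 19 of 19 mice.

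The test took in a gene that reached 10 counts in 12 or more FC, 4 or more NS or 3 or more HC libraries, so that each group has its own set. This let through 44 of the 63 members for FC, 39 for NS and 37 for HC, with 34 common to all 3 groups. A further 17 were tested in none, among them 2 with no count in any of the 38 libraries: *Adcy4* and *Akap4*, an anchoring protein of the sperm tail. The photoreceptor phosphodiesterase genes *Pde6a*, *Pde6b*, *Pde6c*, *Pde6g* and *Pde6h* were also among the 17, as were *Adcy7*, *Adcy10*, *Akap3*, *Akap14*, *Pde1c*, *Pde3a*, *Pde8a*, *Pde11a*, *Pde12* and *Rapgef3*. At the other end, 8 members had at least 10 counts in every library: *Adcy1*, *Akap5*, *Akap9*, *Pde4c*, *Pkig*, *Prkacb*, *Prkar1a* and *Rapgef4*.

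Levels between genes were compared as CPM per kilobase of exon, averaged over all 38 libraries. The regulatory subunits were led by *Prkar1a*, the broadly expressed type I subunit, at 71.9 (SD 35.2, n = 38), and *Prkar1b*, its neuronal counterpart, at 60.9 (SD 40.7, n = 38), which made up 49.0% and 41.6% of the class. The type II subunits *Prkar2a* and *Prkar2b* reached 7.80 and 6.01. The 2 catalytic subunit genes were closer together, with *Prkacb* at 34.5 (SD 19.3) and *Prkaca* at 28.9 (SD 27.8), well within their spread. The order turned with the libraries: *Prkar1b* stood above *Prkar1a* in FC dVenus+ (means 78.5 and 67.7) and NS dVenus- libraries (82.9 and 72.1), and *Prkaca* above *Prkacb* in NS and HC dVenus- libraries.

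The other classes are given by the same mean over all libraries. *Rapgef4*, which encodes Epac2, made up 98.9% of Epac message at 20.8 CPM per kilobase, against 0.224 for *Rapgef3* (Epac1), which reached 10 counts in 4 of 38 libraries. *Pkia* stood at 54.7 (SD 48.2) and *Pkig* at 31.8 (SD 25.4), while *Pkib* was at 0.864; in HC dVenus+ libraries *Pkig* averaged 21.0 and *Pkia* 10.2. Among cyclases, the calmodulin-stimulated *Adcy1* was highest at 21.1 (SD 14.9, 41.3% of the class), above *Adcy9* at 10.1, *Adcy2* at 8.38 and *Adcy8* at 6.42, whose standard deviations of 14.2, 10.7 and 22.0 exceeded their means. In FC dVenus+ libraries the mean of *Adcy8* (16.5) exceeded that of *Adcy1* (10.1) through mouse 05, while the medians were 5.19 and 9.89. *Akap5*, the anchor of the postsynaptic membrane known as AKAP79/150, made up 40.2% of anchoring message at 60.6 (SD 90.4), followed by *Akap8l*, a nuclear protein related to the chromatin anchor AKAP95, at 27.4 (SD 20.7). *Akap5* stood first in NS and HC, where it averaged 70.7 to 208. In FC it averaged 24.5 in dVenus+ and 12.4 in dVenus- libraries, below *Akap8l* at 39.5 and 24.2. In NS and HC dVenus- libraries *Akap8l* averaged 2.29 and 10.4, below *Akap7* at 20.6 and 34.8. The phosphodiesterase class had no dominant gene: the carrier *Pde6d* stood at 18.5 (SD 21.5), and of the enzymes the calmodulin-stimulated *Pde1b* was highest at 14.9 (SD 12.8), with *Pde2a* at 11.8 (SD 12.4). This order turned too: *Pde2a* averaged 12.2 and *Pde1b* 8.73 in FC dVenus+ libraries, and in HC dVenus+ libraries *Pde8b* averaged 11.7, *Pde1b* 5.91 and *Pde6d* 0.184.

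**Figure D2:**
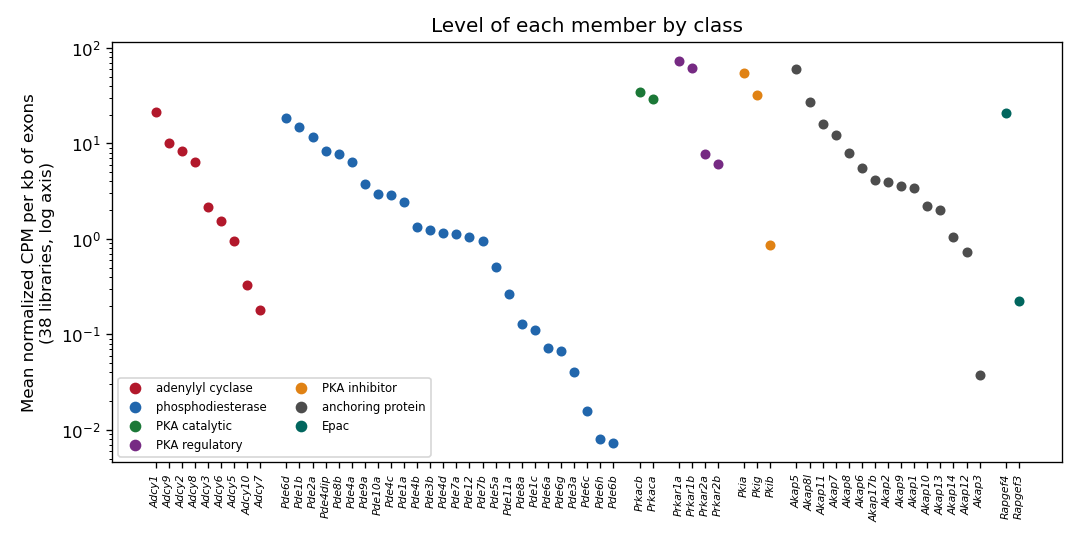
Mean normalized CPM per kilobase of exon over 38 libraries for each member (1 point a gene, log axis), by class and in falling order; *Adcy4* and *Akap4*, with no counts, are not drawn. *Prkar1a*, *Prkar1b*, *Akap5* and *Pkia* stand highest in this mean, at 54.7 to 71.9 (*Akap5* through its NS and HC libraries), and *Rapgef4* makes up 98.9% of the Epac class.

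Promoters were read to see whether members share the cyclic AMP response element, the motif that CREB binds, TGACGTCA, which reads the same on both strands, or its core TGACG on either strand, which lies within the full motif. RefSeq promoter windows of 300 bases (build GRCm38.p6, 250 before to 50 after a start) were found for 51 of the 63 members, 97 windows in all. The full motif was in 2 of these 97 windows (2.06%), against 588 of 32851 windows of all genes (1.79%), and the core was in 20 (20.6%) against 6837 (20.8%). Counted by gene, the core was in a window of 18 of 51 members (35.3%), against 6228 of 27025 genes (23.0%), and the number of windows a gene has was not matched. Both windows with the full motif were overlapping starts of *Prkar1a*. One is shown, plus strand of chr11:109650699-109650998, with full motif and core in capitals, beside the window of *Adcy1*, plus strand of chr11:7063183-7063482, since *Adcy1* is the member with the clearest difference between the cells; neither motif occurs in it.
Prkar1a: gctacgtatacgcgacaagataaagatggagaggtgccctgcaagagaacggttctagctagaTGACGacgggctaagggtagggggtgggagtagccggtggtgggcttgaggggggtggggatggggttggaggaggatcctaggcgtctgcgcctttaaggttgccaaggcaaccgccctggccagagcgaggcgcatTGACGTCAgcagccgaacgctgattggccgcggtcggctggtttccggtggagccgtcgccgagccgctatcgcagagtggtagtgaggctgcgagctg
Adcy1: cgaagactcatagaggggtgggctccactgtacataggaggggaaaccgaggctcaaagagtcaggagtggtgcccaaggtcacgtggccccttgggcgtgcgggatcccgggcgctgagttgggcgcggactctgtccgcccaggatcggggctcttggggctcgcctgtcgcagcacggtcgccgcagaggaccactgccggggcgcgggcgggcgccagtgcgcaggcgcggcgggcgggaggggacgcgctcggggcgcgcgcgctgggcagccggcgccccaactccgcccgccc
A match is a description of the letters in a window and says nothing of binding.

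The FC comparison asks how cells that carried the *Arc* reporter a day after fear conditioning differed from their unlabelled neighbours. *Adcy1* was the member that passed the test: its message fell in dVenus+ cells, lower in 12 of 12 mice. Beyond it, the cyclases, phosphodiesterases, PKA catalytic subunits and PKA inhibitors had median log2 fold changes below 0. The regulatory subunits and anchoring proteins had medians above 0 by default, which turned below 0 under alternatives given with those classes. The edgeR quasi-likelihood test at its defaults, with mouse as block and a call at an adjusted p under 0.05 with a log2 fold change over 1 in size, called 1 of the 44 members tested, where it called 137 of all 9709 genes (1.41%), 56 higher and 81 lower. At an unadjusted p under 0.05 there were 10 members (22.7%; 8 lower and 2 higher) among 1238 genes (12.8%). The median log2 fold change was -0.48 over members and -0.21 over all genes tested, and 56.8% of members and 56.9% of genes were lower. The count of genes called dropped to 71 without mouse 01, 61 without mouse 03 and 83 without mouse 12.

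How many members passed turned on the fit. edgeR's newer quasi-likelihood fit, chosen after the counts of the default fit had been seen, called 424 genes (4.37%) and 5 members, *Adcy1*, *Adcy8*, *Akap13*, *Pde1b* and *Pkia*. The DESeq2 Wald test called 1635 genes (16.8%) and 12 members, the same 5 with *Adcy9*, *Akap1*, *Pde1a*, *Pde4a*, *Pde7a*, *Pde10a* and *Prkar2b*, of which *Akap1*, *Akap13*, *Pde1a*, *Pde4a*, *Pde7a*, *Pde10a* and *Prkar2b* are named after their values were seen. On simulated data this DESeq2 test with mouse as block made more false than true calls, in FC, NS and HC alike. Neither edgeR fit did. The simulated counts took a common dispersion from the default edgeR fit and had no differences between mice beyond library size. They therefore cannot settle which test is right for these data. A paired DESeq2 test is the one the study used, and DESeq2 calls are given here and below for comparison only.

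*Adcy1* encodes an adenylyl cyclase that calcium and calmodulin stimulate, so that calcium entry raises cyclic AMP. In FC its CPM ran from 23.3 to 217, with a median of 124, in dVenus+ libraries and from 125 to 774, with a median of 451, in dVenus- libraries. The groups overlapped in part, since 7 of 12 dVenus+ libraries lay under the lowest dVenus- library and the rest within the lower part of its range. It fell by 1.66 on the log2 scale (SE 0.369, edgeR adjusted p = 0.0290; 0.00738 with the newer fit and 0.000279 with DESeq2), and within single mice the ratio of dVenus+ to dVenus- ran from 0.0301 to 0.921, with a median of 0.309. Fewer cells of a type in a pool and less RNA of the gene per cell cannot be told apart in such pools. Within the 3 FC runs the log2 fold change was -1.25 (mice 01 and 03), -1.67 (mice 04 to 07) and -1.89 (mice 09 to 14), with edgeR adjusted p of 0.651, 0.700 and 0.429 and each mouse lower. Leaving out 1 mouse kept it between -1.80 and -1.43, but the edgeR adjusted p rose above 0.05 without mouse 01 (0.0564), 03 (0.0614), 06 (0.0603), 07 (0.0526), 09 (0.0527), 12 (0.0605) or 13 (0.0594), with log2 fold changes of -1.71, -1.68, -1.60, -1.66, -1.65, -1.60 and -1.63. It was also lost without mice 03 and 05 together (-1.73, edgeR adjusted p = 0.0890) and without mice 05, 07 and 14 together (-1.42, edgeR adjusted p = 0.0703).

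In the other groups *Adcy1* was lower in dVenus+ cells of 3 of 3 HC mice and 3 of 4 NS mice, 18 of 19 in all. Its CPM in HC mice 15 to 17 was 209.8, 85.5 and 174 in dVenus+ and 249.6, 502 and 343 in dVenus- libraries. The HC groups did not overlap, with mouse 16 lowest in dVenus+ and highest in dVenus-, yet the log2 fold change of -1.40 (SE 1.12) had an edgeR adjusted p of 0.984. In NS mice 18 to 21 it was 221, 117, 405 and 140.2 in dVenus+ and 263, 251, 167 and 193 in dVenus- libraries. Here the groups overlapped throughout, mouse 20 had the highest value among its dVenus+ cells, and the log2 fold change was -0.16 (SE 0.811, edgeR adjusted p = 1), turning to 0.25 without mouse 19. The difference between the FC and NS changes, -1.54 (SE 0.772), did not pass its own test (edgeR adjusted p = 0.876).

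**Figure D3:**
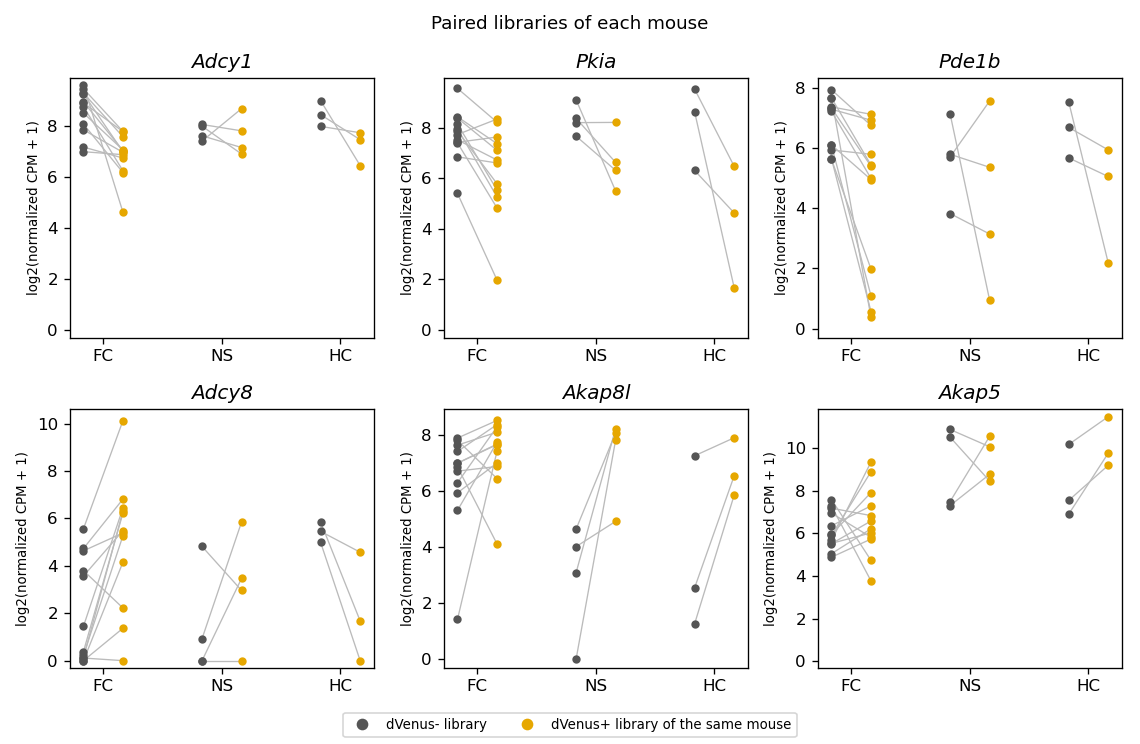
Log2 of normalized CPM plus 1 for 6 members in the dVenus- (grey) and dVenus+ (gold) library of each mouse, joined by a line, in FC, NS and HC. *Adcy1* was lower in dVenus+ cells of 18 of 19 mice, *Pde1b* of 18 and *Pkia* of 16, and *Akap8l* was higher in 17.

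*Adcy8*, the other cyclase that calmodulin stimulates, lay on the opposite side in FC. Its CPM ran from 0 to 1116, with a median of 42.3, in FC dVenus+ libraries and from 0 to 46.2, with a median of 1.02, in dVenus- libraries. Mouse 05 alone held the value of 1116, both ranges reached 0, and 5 of 12 dVenus+ libraries lay above every dVenus- library. It was higher in 10 of 12 mice, at a log2 fold change of 4.55 (SE 1.22), which missed the threshold in the default edgeR fit (adjusted p = 0.0710), passed it in the newer fit (3.73, adjusted p = 0.00773) and passed it by default without mouse 09 (5.08, adjusted p = 0.0335). The HC libraries showed the reverse order, with 2.19, 0 and 22.8 CPM in dVenus+ and 56.5, 30.6 and 42.7 in dVenus- cells of mice 15 to 17. Those HC groups did not overlap, and the log2 fold change was -4.65 (SE 3.74, edgeR adjusted p = 0.984). In NS the CPM was 0, 56.6, 10.1 and 6.78 against 0, 0.903, 0 and 27.1 in mice 18 to 21. The NS log2 fold change lay between 1.09 and 6.55 when 1 mouse was left out. The FC change exceeded the HC change by 8.87 (SE 3.07), short of the threshold in the test of that difference by edgeR (adjusted p = 0.752) and past it by DESeq2 (9.52, adjusted p = 0.0000849), which was not tried on simulated data for differences between groups. The NS change likewise exceeded the HC change, by 9.13 (SE 4.21, edgeR adjusted p = 0.992), and by 8.20 with DESeq2 (adjusted p = 0.00969). FC against NS, the difference was -0.26 (SE 1.54).

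*Adcy9*, a broadly expressed cyclase that forskolin stimulates poorly, had the opposite pattern between FC and NS. In FC it ran from 0.352 to 64.8 CPM, with a median of 9.11, in dVenus+ and from 5.96 to 216, with a median of 43.2, in dVenus- libraries. It was lower in dVenus+ cells of 10 of 12 mice (log2 fold change -2.36, SE 0.836, edgeR adjusted p = 0.187), with 4 of 12 libraries under the lowest dVenus- library. In NS mice 18 to 21 it was 63.1, 36.9, 23.0 and 196 CPM in dVenus+ and 32.3, 0.181, 0.872 and 9.45 in dVenus- cells. Every NS mouse had more in its dVenus+ library, 3 of 4 of which lay above all dVenus- libraries, at a log2 fold change of 4.40 (SE 2.21, edgeR adjusted p = 0.991). The difference of these changes was -6.77 (SE 2.33, edgeR adjusted p = 0.876; -6.64 and 0.000747 by DESeq2), and HC had 10.97, 0 and 14.7 CPM in dVenus+ against 47.2, 341 and 0 in dVenus- cells (-2.23, SE 3.98; 2.89 without mouse 16).

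As a class, 4 of 6 cyclases tested in FC had lower values in dVenus+ cells (median log2 fold change -1.70, range -2.36 to 4.55), 3 of the 6 at an unadjusted p under 0.05. The CPM per kilobase summed over the class was lower in dVenus+ cells of 11 of 12 FC mice, with medians of 31.8 and 74.4. It was also lower in 3 of 3 HC mice, with medians of 22.0 and 64.7. *Adcy1* alone made up 41.3% of the class level over all libraries, so this sum in part repeats its values. Of 5 tested in NS 4 were higher (median 2.44), and of 5 in HC 4 were lower (median -2.23), none at an unadjusted p under 0.05 in either group. The FC median was -0.65, -0.83 and -0.59 within the 3 runs and -0.78 without the block, and the HC median ran from -6.42 without mouse 17 to -0.76 without mouse 16. The NS median ran from 1.42 without mouse 20 to 3.03 without mouse 21, and it was 1.18 without the block. The summed level in NS was higher in dVenus+ cells of 3 of 4 mice, with medians of 40.6 and 26.7.

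Among phosphodiesterases, *Pde1b* stood out for its regularity across mice. It encodes a phosphodiesterase that calmodulin activates, so that calcium also speeds breakdown of cyclic nucleotides. Its CPM in FC ran from 0.298 to 137, with a median of 35.8, in dVenus+ and from 48.1 to 242, with a median of 151, in dVenus- libraries. It was lower in dVenus+ cells of 12 of 12 FC mice, and 8 of 12 dVenus+ libraries lay under the lowest dVenus- library. The log2 fold change was -2.43 (SE 0.758), with an edgeR adjusted p of 0.126 by default and 0.0310 in the newer fit, where it was -2.14. In HC mice 15 to 17 the CPM was 3.57, 32.1 and 60.03 in dVenus+ against 184, 49.8 and 101 in dVenus- cells, lower in 3 of 3 mice. In NS mice 18 to 21 it was 7.82, 39.9, 186 and 0.935 against 13.1, 54.2, 50.7 and 139.6, with mouse 20 the single one of 19 in which dVenus+ cells had more. The log2 fold change was -2.16 (SE 2.25) in HC and -0.95 (SE 1.92) in NS, the latter turning to 0.16 without mouse 21. The HC change ran from -3.375 to -0.85 when 1 mouse was left out.

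Of the 16 phosphodiesterases tested in FC, *Pde1b* among them, 10 were lower in dVenus+ cells (62.5%, beside 56.9% of all genes; median -1.14, range -3.02 to 1.03), and 4 had an unadjusted p under 0.05, all of them lower: *Pde1b* and, named after their values were seen, *Pde10a* (-2.78, SE 1.00), *Pde1a* (-2.27, SE 1.07) and *Pde4a* (-1.17, SE 0.503), with edgeR adjusted p of 0.197, 0.379 and 0.303 and lower values in 9, 10 and 10 of 12 mice. *Pde1a* is another calmodulin-activated enzyme, *Pde10a* hydrolyses both cyclic AMP and cyclic GMP, and *Pde4a* is specific to cyclic AMP. The class sum per kilobase was lower in dVenus+ cells of 12 of 12 FC mice. It ran from 48.6 to 107, with a median of 69.7, against 88.0 to 199, with a median of 109. Both the 16 genes and this sum include *Pde6d* and *Pde4dip*, which are in the class by name only. They made up 21.0% and 9.5% of the class level over all libraries. In NS 7 of 12 tested were higher (median 0.28) and in HC 9 of 12 (median 1.38), although the class sum was lower in dVenus+ cells of 3 of 4 NS and 2 of 3 HC mice. The NS median turned to -0.15 without mouse 18, -0.01 without mouse 20, -0.10 without the block and -0.002 in the newer fit. *Pde6d*, the carrier protein, had log2 fold changes of -1.35 (SE 1.02) in FC and -2.93 (SE 3.10) in NS and was not tested in HC.

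The catalytic class sum of PKA per kilobase was lower in dVenus+ cells of 9 of 12 FC mice, with medians of 48.2 and 57.3, 4 of 4 NS mice (53.1 and 120) and 2 of 3 HC mice (36.4 and 70.5). *Prkacb*, one of its 2 genes, was lower in dVenus+ cells of 9 of 12 FC, 4 of 4 NS and 2 of 3 HC mice, with log2 fold changes of -0.54 (SE 0.336), -0.90 (SE 0.661) and -0.62 (SE 1.32). In FC its CPM ran from 72.2 to 423, with a median of 221, in dVenus+ and from 147 to 846, with a median of 287, in dVenus- libraries, so that the groups overlapped widely. In NS it was 185, 363, 232 and 245 against 409.97, 717, 473 and 324 in mice 18 to 21. The 4 NS mice thus all had less in dVenus+ cells, though the value of mouse 19 lay above the dVenus- value of mouse 21. *Prkaca* had log2 fold changes of -0.43 (SE 0.574), -1.38 (SE 1.38) and -1.18 (SE 1.87) in FC, NS and HC and was lower in 13 of 19 mice. Leaving out 1 mouse gave ranges for *Prkaca* of -0.61 to -0.17 in FC, -2.27 to -0.32 in NS and -2.05 to -0.31 in HC. The edgeR adjusted p of both genes was at least 0.562 in FC and higher in NS and HC, and the HC change of *Prkacb* turned to 0.37 without mouse 15 and 0.27 without mouse 16.

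Regulatory subunits had 3 of 4 genes higher in FC dVenus+ cells (median 0.66, and -0.19 within the run of mice 04 to 07). In NS 1 of 4 was higher (median -0.73, with -1.34 without mouse 20 and -0.11 without mouse 18). In HC 2 of 4 were higher (median 1.07, with 0.61 without mouse 17). The class sum per kilobase, which the type I genes dominate, was instead lower in dVenus+ cells of 3 of 3 HC mice (medians 75.7 and 118) and of 4 of 4 NS mice (119 and 158), and higher in 7 of 12 FC mice (143 and 136). *Prkar1a*, which holds the catalytic subunit inactive in most tissues, ran from 44.3 to 441 CPM, with a median of 316, in FC dVenus+ and from 136 to 731, with a median of 341, in dVenus- libraries. The ranges overlapped almost fully, at a log2 fold change of -0.15 (SE 0.326; 0.03 without mouse 07), beside -0.29 (SE 0.825; 0.25 without mouse 21) in NS and -0.78 (SE 1.02) in HC. *Prkar1b* was higher in dVenus+ cells of 9 of 12 FC mice (0.65, SE 0.365) and lower in 3 of 4 NS (-1.55, SE 1.05) and 2 of 3 HC mice (-1.66, SE 1.99), with ranges of -2.35 to -0.57 in NS and -3.46 to -0.22 in HC when 1 mouse was left out. Its NS libraries held 393, 146, 223 and 2.57 CPM in dVenus+ and 342, 417, 276 and 229 in dVenus- cells of mice 18 to 21, mouse 21 being far the lowest. The difference between its FC and NS changes was 2.13 (SE 1.18, edgeR adjusted p = 0.876).

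PKA inhibitors had log2 fold changes below 0 for each gene tested by default, none of them called: 3 of 3 in FC (median -0.76), 3 of 3 in NS (median -1.67) and 2 of 2 in HC (median -2.63). One of 3 turned higher in FC without mouse 01 or 04 or within the run of mice 04 to 07, and in NS without mouse 18, where the NS median was -0.65. *Pkib* was lower in 6 of 12 FC and 2 of 4 NS mice. *Pkia* encodes the PKI alpha peptide, which blocks the catalytic subunit and helps carry it out of the nucleus, and it was lower in dVenus+ cells of 16 of 19 mice. Its CPM in FC ran from 2.94 to 321, with a median of 100.1, in dVenus+ and from 41.2 to 747, with a median of 221, in dVenus- libraries. The groups overlapped, with 10 of 12 mice lower, at a log2 fold change of -1.44 (SE 0.411) and an edgeR adjusted p of 0.0947 by default and 0.0423 in the newer fit. In NS mice 18 to 21 it was 44.2, 97.7, 78.3 and 294 in dVenus+ against 547.5, 328, 201 and 292 in dVenus- cells. In HC mice 15 to 17 it was 2.19, 23.7 and 87.6 against 391, 78.0 and 731. All mice but NS mouse 21, whose values were nearly equal, had less in their dVenus+ library in these 2 groups, with log2 fold changes of -1.67 (SE 0.881, edgeR adjusted p = 0.991) and -3.91 (SE 1.47, edgeR adjusted p = 0.984). *Pkig*, a related peptide gene, had -0.76 (SE 0.504), -0.68 (SE 1.09) and -1.35 (SE 1.52) in FC, NS and HC, and turned to 0.09 in NS without mouse 18. The class sum per kilobase, of which *Pkia* made up 62.65% over all libraries, was lower in dVenus+ cells of 10 of 12 FC mice (medians 54.5 and 91.4). It was also lower in 4 of 4 NS mice (49.8 and 111) and 3 of 3 HC mice (42.1 and 147).

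Of the anchoring proteins tested, 5 of 12 were lower in FC dVenus+ cells (41.7%, beside 56.9% of all genes; median 0.26), 3 of 12 in NS (25%, beside 46.1%; median 1.20) and 5 of 11 in HC (45.5%, beside 48.4%; median 0.71). Their sum per kilobase was higher in dVenus+ cells of 8 of 12 FC, 2 of 4 NS and 3 of 3 HC mice. The FC median turned to -0.07 without mice 05, 07 and 14, left out together for the TMM factors given above after the data had been seen, and to -0.15 within the run of mice 09 to 14, and the HC median to -0.09 without the block. With 1 mouse left out, the FC median ran from 0.002 (mouse 09) to 0.56 (mouse 04) and the HC median from 0.14 (mouse 15) to 2.11 (mouse 16). *Akap8l* was the most regular, higher in dVenus+ cells of 17 of 19 mice. In NS mice 18 to 21 its CPM was 296, 29.2, 222 and 266 in dVenus+ and 7.47, 15.2, 0 and 23.9 in dVenus- cells. The NS groups did not overlap, mouse 19 being the closest, at a log2 fold change of 4.60 (SE 1.80, edgeR adjusted p = 0.991, where 0 of 8187 genes, 0%, were called). In HC mice 15 to 17 it was 237, 56.7 and 91.8 against 152, 1.41 and 4.87, and in FC the medians were 201 and 120.3, higher in 10 of 12 mice (0.85, SE 0.555, edgeR adjusted p = 0.584). The dVenus- values of HC mice 16 and 17 were close to 0, while mouse 15 had high values in both libraries.

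*Akap5* binds PKA, protein kinase C and calcineurin beneath glutamate receptors. In HC mice 15 to 17 its CPM was 860.1, 2821 and 581 in dVenus+ against 118, 1144 and 185 in dVenus- cells. Each HC mouse had more in its dVenus+ library, though the groups overlapped through the high pair of mouse 16, at a log2 fold change of 1.78 (SE 0.771, edgeR adjusted p = 0.984). In NS mice 18 to 21 it was 349.7, 1064, 434 and 1487 against 1454, 1865, 156 and 178, lower in dVenus+ cells of mice 18 and 19 and higher in 20 and 21. The NS log2 fold change of 0.38 (SE 0.83) accordingly turned to -0.24 without mouse 20 and -0.54 without mouse 21. In FC the medians were 83.7 and 59.8 (0.58, SE 0.613), within 12.6 to 647 in dVenus+ and 28.5 to 191 in dVenus- libraries. Within runs the FC change was 0.34, 2.14 and -0.60 in mice 01 and 03, 04 to 07 and 09 to 14, and without mice 05, 07 and 14 it was -0.27. The lower level in FC than in NS or HC libraries coincides with the change of run and cannot be told apart from it.

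*Akap7*, a small membrane anchor known in muscle and brain, lay below 0 in each group and was lower in dVenus+ cells of 14 of 19 mice. In HC mice 15 to 17 its CPM was 28.2, 0 and 9.54 in dVenus+ against 62.2, 284 and 111 in dVenus- cells. These HC groups did not overlap, at a log2 fold change of -4.25 (SE 2.53, edgeR adjusted p = 0.984, where 2 of 7588 genes, 0.0264%, were called), beside -3.17 (SE 2.12) in NS and -1.56 (SE 1.11) in FC. *Akap13*, named after its values were seen, was higher in dVenus+ cells of 10 of 12 FC, 4 of 4 NS and 1 of 3 HC mice, with FC medians of 91.2 and 3.22 CPM (4.05, SE 1.40, edgeR adjusted p = 0.177; 3.79 and 0.0187 in the newer fit). The outer-membrane mitochondrial anchor *Akap1*, also named after its values were seen, was lower in dVenus+ cells of 11 of 12 FC mice (-3.64, SE 1.29, edgeR adjusted p = 0.188) and higher in 2 of 4 NS and 3 of 3 HC mice (60.1, 74.4 and 6.89 against 3.93, 28.8 and 1.27 CPM in HC mice 15 to 17; 2.42, SE 2.84).

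Of the Epac genes, *Rapgef4* had no clear direction. Its CPM in FC ran from 48.9 to 388, with a median of 135, in dVenus+ and from 8.70 to 358, with a median of 166, in dVenus- libraries. The ranges overlapped nearly fully, at log2 fold changes of 0.01 (SE 0.542) in FC, -0.07 (SE 1.05) in NS and 0.54 (SE 1.99) in HC, which changed sign without FC mouse 05 (-0.27), 06 (-0.21), 07 (-0.31) or 14 (-0.09), NS mouse 21 (0.28) or HC mouse 16 (-0.83). *Rapgef3* had a count in 11 of 38 libraries, and 24.2 CPM in the FC dVenus- library of mouse 10 was its highest value. The interneuron marker sum of that library was 2618 CPM.

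The NS comparison asks the same of mice placed in the context with no shock, and the HC comparison of mice that stayed in the home cage. No member passed by edgeR in either. *Akap8l* and *Adcy9* were higher and *Prkacb* lower in NS dVenus+ cells of every mouse. In HC dVenus+ cells of every mouse *Pkia*, *Akap7*, *Adcy1*, *Adcy8* and *Pde1b* were lower and *Akap5* and *Akap8l* higher. Further members, among them *Akap13* and *Akap17b* in NS and *Akap1* and *Prkar2b* in HC, were also higher in every mouse. In NS 0 of 39 members passed by edgeR (1 at an unadjusted p under 0.05, *Akap8l*; 0 by the newer fit and 3, *Adcy9*, *Akap8l* and *Akap17b*, the last named after its values were seen, by DESeq2), as did 0 of 8187 genes (384 at an unadjusted p under 0.05; 4 by the newer fit, 0.0489%, and 666 by DESeq2, 8.13%; 11 by edgeR without mouse 19 and 8 without mouse 21). In HC 0 of 37 members passed by edgeR (2 at an unadjusted p under 0.05, *Pkia* and *Akap5*; 0 by the newer fit and 0 by DESeq2), beside 2 of 7588 genes (297 at an unadjusted p under 0.05; 0 by the newer fit, 0%, and 625 by DESeq2, 8.24%). The median log2 fold changes over members and over all genes were 0.26 and 0.20 in NS and 0.11 and 0.11 in HC, with 18 of 39 and 18 of 37 members lower.

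**Figure D4:**
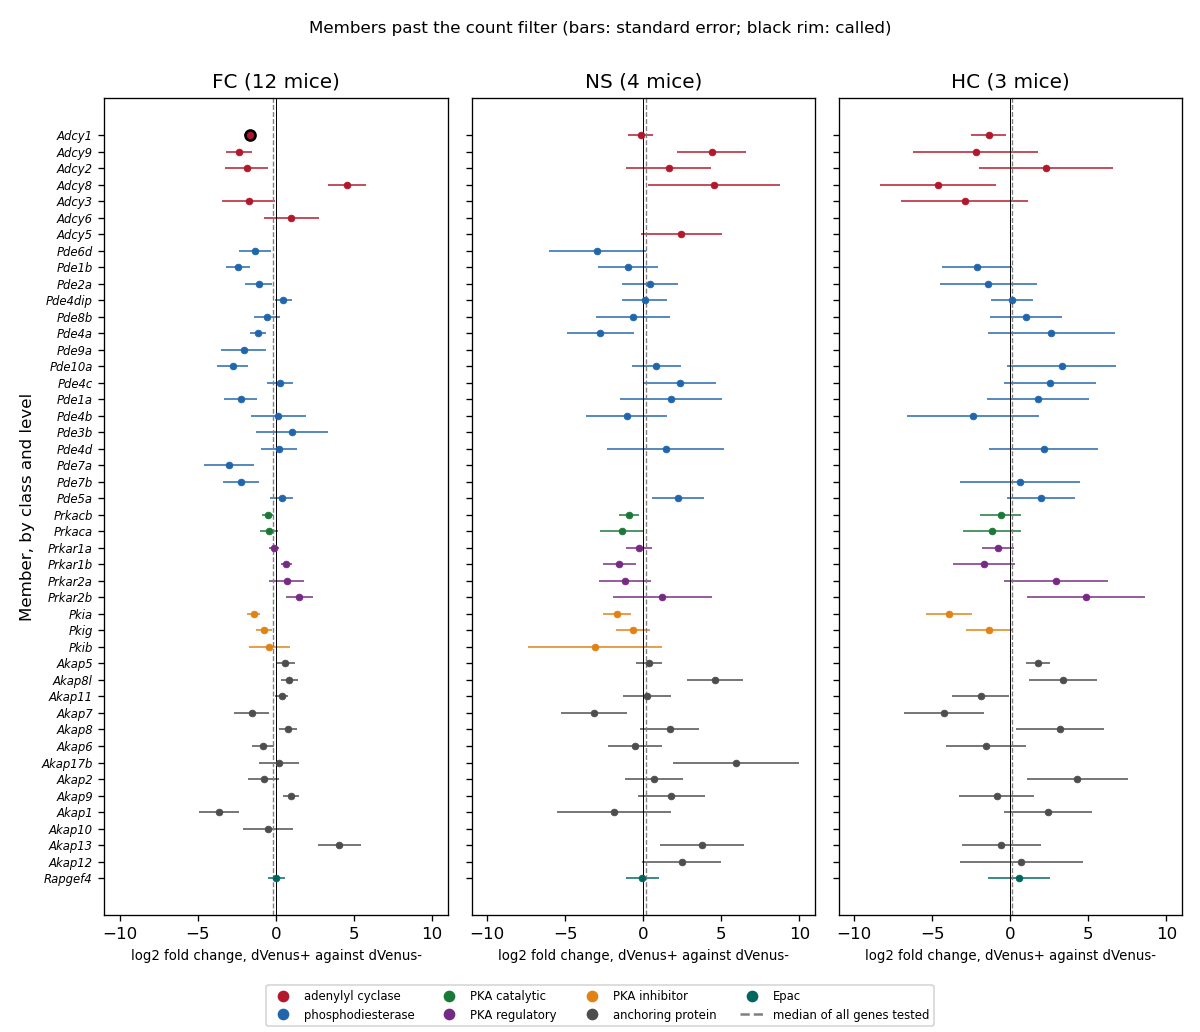
Log2 fold change of dVenus+ against dVenus- for each member tested, by class (color) and level, with bars of 1 SE from edgeR and a dashed line at the median of all genes tested. The black rim marks *Adcy1* in FC, at -1.66 the member that passed the test.

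Whether the dVenus+ difference itself changed between groups was tested for 53 members among 14075 genes. edgeR called 0 members and 0 genes (0%) for FC against NS (4 members and 763 genes at an unadjusted p under 0.05), 0 members and 0 genes (0%) for FC against HC (4 and 892), and 0 members and 1 gene (0.0071%) for NS against HC (3 and 688). The newer fit called 0 members in each, and DESeq2 called 5, 8 and 4 members among 1192, 1570 and 1333 genes (8.47%, 11.2% and 9.47%). The median difference over all genes was -0.69 for FC against NS and -0.87 for FC against HC, and it was -0.55 and -0.61 under DESeq2's size factors and -0.45 and -0.56 without a count filter. Over members it was -0.38 and -0.71 by default, -0.34 and -0.62 under size factors and -0.89 and -0.67 without a filter, so that which of the 2 medians was lower turned with the setting. No member's change is therefore shown by edgeR to differ between groups.

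Of the genes upstream and downstream of cyclic AMP, 3 of 64 tested passed the threshold in FC (4.69%, beside 1.41% of all genes), with 18 of 64 at an unadjusted p under 0.05 (28.1%, beside 12.8%; 14 lower). Those past it were 0 of 61 in NS (5 at an unadjusted p under 0.05 by edgeR) and 0 of 55 in HC (1). The lists were chosen with earlier results of these data known, so these shares do not test the lists against all genes. *Arpp21*, a cyclic AMP-regulated phosphoprotein and PKA substrate, rose in FC dVenus+ cells: its CPM ran from 279 to 1109, with a median of 571, against 37.8 to 269, with a median of 129. The groups did not overlap, with 12 of 12 mice higher, at a log2 fold change of 2.20 (SE 0.326, edgeR adjusted p = 0.00157). *Npy2r*, a receptor for neuropeptide Y that inhibits cyclases through Gi, fell, from 10.2 to 161 CPM, with a median of 46.0, in dVenus- to between 0 and 43.1, with a median of 0.208, in dVenus+ libraries. It was lower in 12 of 12 mice (-6.30, SE 1.26, edgeR adjusted p = 0.0149), with 9 of 12 dVenus+ libraries under the lowest dVenus- library; the adjusted p was 0.0632 without mice 03 and 05 and 0.0937 without 05, 07 and 14, and without the block the change was -3.08 (edgeR adjusted p = 0.168). *Wasf1*, the actin regulator WAVE1 that also anchors PKA, fell in 11 of 12 mice, with medians of 94.7 and 296 CPM (-1.64, SE 0.378, edgeR adjusted p = 0.0332), and was no longer called without mouse 01, 03, 05, 06, 07, 09, 11, 12 or 13 (log2 fold changes from -1.79 to -1.43 and adjusted p up to 0.0742 over the 12 mice left out in turn) or without either set of mice (0.101 and 0.0834).

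By list in FC, 5 of 6 Gs-coupled receptors tested were lower (median -2.25) and 9 of 11 Gi-coupled receptors (median -1.71, *Npy2r* called), as were 7 of 8 genes of Gs, Gi and related alpha subunits (median -1.01). All 3 calmodulin genes were lower in each group, with FC, NS and HC medians of -0.76, -0.99 and -1.14 and 2, 2 and 1 of them at an unadjusted p under 0.05, though none was called by edgeR. Calmodulin is the activator of *Adcy1*, *Adcy8* and the *Pde1* enzymes named above. The CREB family and its coactivators were split, 5 of 10 lower (median -0.09). The list of phosphatase inhibitors and related PKA substrates had 3 of 5 higher (median 0.55, the substrate *Arpp21* called). The anchors with other names had 6 of 10 lower (median -0.52, *Wasf1* called). Rap GTPases had 3 of 5 higher (median 0.36), and kinases and transporters near PKA 4 of 5 higher (median 0.63). Of the cyclic nucleotide-gated channels and Popeye proteins 1 of 13 was tested in FC, at 5.82 and not called. Over all these lists 40 of 64 genes were lower in FC (median -0.44, beside -0.21 over all genes).

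In NS and HC the receptor lists held genes on both sides of 0, with medians of 0.32 (range -3.31 to 8.72) and 0.06 (-3.07 to 7.36) for Gs-coupled and 0.11 (-2.72 to 2.14) and 0.14 (-2.37 to 6.07) for Gi-coupled receptors. The alpha subunits had medians of 0.66 and -0.11, and the CREB list 0.23 and 0.66. The list of phosphatase inhibitors and related PKA substrates had -0.75 and -0.14, and the channel list, with 2 genes tested, 2.38 and 3.04. Anchors with other names stood at 0.66 and 0.54, and kinases and transporters near PKA at -1.18 and 1.30. The Rap GTPases, targets of Epac, were higher in 4 of 5 genes in NS (median 0.73) and lower in 5 of 5 in HC (median -1.01). None of these genes was called by edgeR in NS or HC.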

How the data were processed

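The authors deposited 38 libraries (SmartSeq2 cDNA, Nextera XT, single reads of 50 bases), aligned to mm10 with TopHat2 2.0.13, as counts of reads per NCBI gene from HTSeq 0.6.0; other FC and HC pairs that they collected were left out by them at quality control and are not analysed here. Reads outside genes were 16.4% to 59.7% of a library and were left out, as were the 5 entries that name no gene. The medians of this share in dVenus+ and dVenus- libraries were 45.4% and 47.8% in FC, 39.3% and 18.9% in NS, and 31.1% and 26.1% in HC. The part of this share in the differences between the cells was not tested. Gene lengths are the union of GENCODE M21 exons. *Adcy3* shares 1380 exonic bases with *Cenpo*, and reads that fit 2 genes were not counted.

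Groups and mice were taken from the deposited source names, titles and mouse numbers, which agree. For 10 of the 14 NS and HC libraries the description field names another library, in some cases of the other cell class or another mouse. *Arc* separates the cell classes as titled, while the pairing of NS and HC libraries by mouse was not checked by other means. For dVenus+ against dVenus- in each of FC, NS and HC, genes that reached 10 counts in 12, 4 and 3 or more libraries were fitted in edgeR 4.0.16 (R 4.3.3, limma 3.58.1; TMM, estimateDisp, glmQLFit and glmQLFTest at defaults) with mouse as block, and p-values were adjusted by Benjamini-Hochberg over all genes tested. SE is the log2 fold change divided by the square root of F. Differences between groups were tested in 1 fit of all 38 libraries. The block was kept since both libraries come from the same animal; after cell type was removed, each pair of libraries correlated over genes with medians of 0.0407 for FC, -0.0127 for NS and 0.0176 for HC. Without the block, edgeR called 126 genes and 1 member in FC and 0 members in NS and HC. Alternatives were DESeq2 1.42.0 size factors, its Wald test, no count filter, no block, each mouse or run apart and mice 03 and 05 left out. Chosen after seeing the data were edgeR's newer fit and the fit without mice 05, 07 and 14.

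Named genes are members called in any group, the 3 with the smallest p in each group, the 2 with the highest level in each class, list genes called in any group or with the 3 smallest p in FC, and *Arc*. The members and lists were chosen with earlier results of these data known.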

Additional observations from a re-analysis of the deposited data

Results flagged for a closer look

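Among 32 groups of 4 libraries examined, that is the NS dVenus+ and dVenus- libraries of each named member, 3 held 1 library far from the other 3; for normally spread values chance alone gives about 1 in 20 such groups, a rate that does not hold for counts with many zeros. *Adcy8* had 27.1 CPM in the NS dVenus- library of mouse 21, against 0, 0 and 0.903 in the others. *Rapgef3* had 18.2 CPM in the NS dVenus+ library of mouse 19 and 0.610 in the NS dVenus- library of mouse 18, against 0 in the other libraries of each group; any group of 0, 0, 0 and 1 count or more meets the rule. The causes were not tested.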

How the results depend on the processing

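Of 577 recomputed log2 fold changes of 44 values of named members, 527 kept direction and side of the threshold, and 28 changed sign. Another 12 were no longer called and 10 became called. *Adcy1* in FC alone was called by default, so for every other value the side kept was that of no call. All 12 losses were of *Adcy1* in FC. It lost its call in 5 settings and kept it in 5, and lost it in 7 of 12 fits with 1 mouse left out.

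In FC, where 137 genes and 1 member were called, DESeq2 called 1635 genes and 12 members, the newer edgeR fit 424 and 5, the runs of mice 01 and 03, 04 to 07 and 09 to 14 alone 16, 3 and 0 genes with 0 members each, and the fits without mice 03 and 05 or 05, 07 and 14 called 46 and 65 genes with 0 members each. Without 1 mouse, 61 to 114 genes and 0 to 1 members were called in FC. In NS, size factors called 1 gene, DESeq2 666 genes and 3 members, the newer fit 4 genes, no filter 13 and 1 mouse fewer 0 to 11. In HC, size factors, the newer fit and no block called 0 genes, DESeq2 625, no filter 5 and 1 mouse fewer 2 to 3. For the differences between groups, DESeq2 called 5, 8 and 4 members.

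Signs changed in FC for *Rapgef4* (-0.047 unfiltered, -0.011 without block, -1.06 in mice 01 and 03, -0.79 in mice 09 to 14, -0.24 without mice 03 and 05, -0.77 without 05, 07 and 14), *Pde6d* (0.23) and *Prkar1a* (0.37) in mice 01 and 03, and *Akap5* (-0.60 in mice 09 to 14, -0.27 without 05, 07 and 14), and in NS without block for *Adcy1* (0.016) and *Akap5* (-0.14). Leaving out 1 mouse gave ranges across 0 in FC for *Prkar1a* (-0.26 to 0.027) and *Rapgef4* (-0.31 to 0.22), in NS for *Adcy1* (-0.71 to 0.25), *Akap5* (-0.54 to 1.27), *Pde1b* (-2.13 to 0.16), *Pkig* (-1.27 to 0.086), *Prkar1a* (-0.83 to 0.25) and *Rapgef4* (-0.25 to 0.28), and in HC for *Adcy9* (-6.42 to 2.89), *Prkacb* (-1.91 to 0.37) and *Rapgef4* (-0.83 to 1.83). The cause was not tested. *Rapgef3* reached 10 counts in 4 of 38 libraries and was tested in no single group; the part of depth was not tested.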
